A study of Mus musculus with 6 samples.

Results

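The Notch pathway genes examined here were 10 ligands, receptors, effectors and modulators, namely Jag1, Jag2, Dll1, Notch1, Notch2, Notch3, Hes1, Hes6, Hey1 and Lfng. They were taken by name, and every probe that the platform annotation assigned to them was followed, which gave 13 probes of the 45281 on the Illumina MouseWG-6 v2 BeadChip and 10 of its 19074 gene symbols. Hes6 had 3 probes, Notch2 had 2 and each other gene had 1.

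Notch receptors are single-pass membrane proteins that are activated by Jagged and Delta-like ligands on a neighbouring cell. Ligand binding leads to cleavage of the receptor, and the freed intracellular domain enters the nucleus, where it joins the DNA-binding protein RBPJ and a Mastermind protein, which recruits the acetyltransferases CBP and p300. The best known direct targets are the Hes and Hey repressor genes, and in the mouse lens Jag1 is known for its role in growth and fibre cell differentiation.

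RNA was profiled from laser-microdissected head ectoderm of mouse embryos at E9.5 (embryonic day 9.5), on a mixed FVB and 129 background in both groups. The WT group was wild type lens placode, the thickened ectoderm that gives rise to the lens, and the KO group was surface ectoderm of embryos labelled CBP/p300-/-, with 3 arrays each. CBP and p300 are encoded by Crebbp and Ep300, and their deletion in the study was conditional. The methods name a Pax6-Cre driver but a later embryonic stage than the labels, so the driver in these embryos is not settled by the sources used here. The labels describe RNA of 3 embryos pooled per genotype and amplified in triplicate, whereas the study describes the arrays as biological replicates. The p-values therefore measure only the spread between these samples, which may be technical. The labelled tissue differed together with the genotype, and the 2 cannot be told apart, nor can fewer cells of a type be told apart from less RNA per cell.

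Each array carried 27.0% to 38.0% of its probes above background, defined by a detection p-value under 0.01. WT replicate 1 stood apart, with a median scanner intensity of 141 against 85.6 to 95.5 on the other 5 arrays and the fewest probes above background, 12212 against 14759 to 17195. Its dimmest probe above background lay at a log2 normalised intensity of 6.71, against 5.51 to 6.02 on the other arrays. Probes for the targeted genes did not separate the groups in the labelled direction. The brighter Crebbp probe differed by 0.19 ± 0.50 (log2, KO minus WT, SE, adjusted p = 0.910), the brighter Ep300 probe by 0.18 ± 1.10 (adjusted p = 0.963), and a second Ep300 probe was above background only in KO, at least 3.03-fold brighter (adjusted p = 0.0738). The position of these probes relative to the deleted exons was not known here, so they do not check the labels.

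Of the 10 genes, only the ligand gene Jag1 passed the threshold for a difference between the genotypes, and it was lower in KO. It did so in 6 of 14 alternative settings, and 4 of the 10 genes had no tested probe. After normalization, the receptor gene Notch2 (both probes) and the effector gene Hes1 lay lower on every KO array than on every WT array. The receptor gene Notch3 lay higher, but none of these passed the threshold. Before normalization the groups overlapped for Hes1 and for the dimmer Notch2 probe. Jag2, Dll1 and Lfng were not above background on any of the 6 arrays. A probe was tested when it was above background on all 3 arrays of at least 1 genotype, and called when the adjusted p was under 0.05 and the log2 fold change at least 1 in size. Of the 13 probes, 7 (6 genes) passed this filter. A probe that entered only through the genotype in which it is bright was prone to look different, so the number that passed carries no weight. 1 of the 7 was called lower, where 0.425% of all 12697 tested probes were, and 0 were called higher, against 0.417%. With median scaling in place of quantile normalization the calls over all probes split differently, with 29 lower and 63 higher against 54 and 53.

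After normalization, all 3 KO arrays lay below all 3 WT arrays for 4 of the 13 probes (30.8%), against 8.0% of all 45281 probes. The 4 were all among the 7 tested, beside 10.2% of all tested probes, and 2 of the 4 probes belong to 1 gene. All 3 KO arrays lay above for 1 of 13 (7.69%), near the 6.12% of all probes. That probe was 1 of the 7 tested, beside 11.3% of all tested probes. At an unadjusted p under 0.05, 4 of the 7 tested probes were lower, against 6.61% of all tested probes, and 1 was higher, against 8.58%. All of these counts are descriptions only, since the genes were chosen with earlier results of these data known. For the counts over the tested probes, 3 of the 4 lower probes also passed the filter through WT alone and the higher one through KO alone. Likewise as a description, the median log2 fold change was -0.54 over the 6 genes with a tested probe and -0.32 over all 10 genes by their brightest probe, beside 0.05 over all tested probes and -0.03 over all probes.

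**Figure D1:**
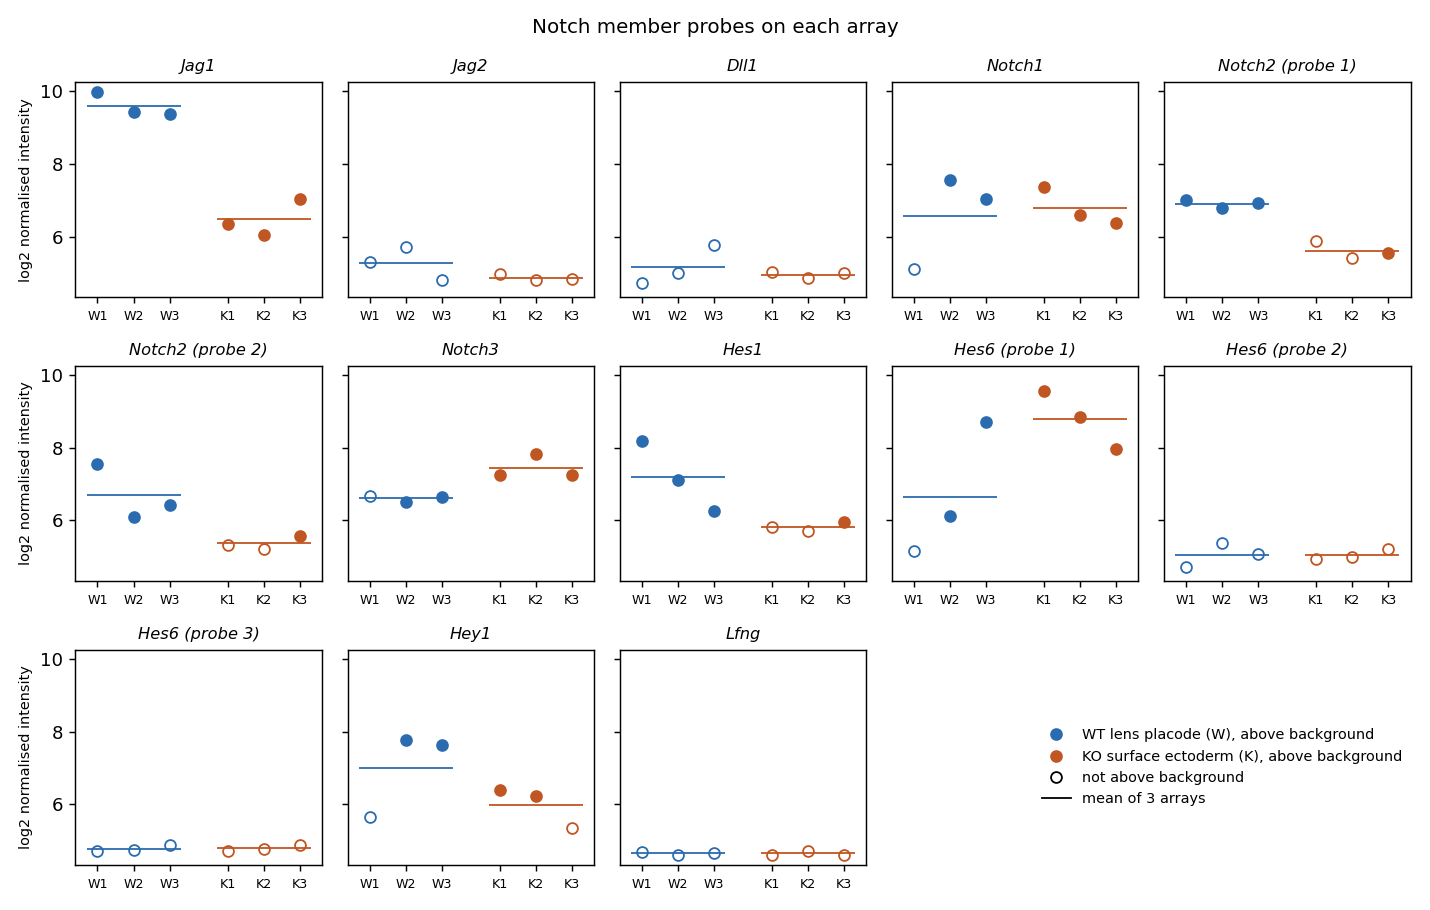
Log2 normalised intensity (vertical axis, shared by all panels) of each of the 13 probes on the 3 WT (W1 to W3, blue) and 3 KO arrays (K1 to K3, orange); filled points are above background, open points are not, and lines are group means. Jag1 falls from a WT mean of 9.60 to a KO mean of 6.47, and the open points show that Jag2, Dll1 and Lfng are not above background on any array.

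Jag1 encodes a transmembrane ligand of the Notch receptors. Its probe (ILMN_1257077) gave log2 normalised intensities of 9.98, 9.44 and 9.39 in WT and 6.36, 6.03 and 7.02 in KO. The groups were far apart, and the lowest WT value lay above the highest KO value by more than the whole range within either group. Jag1 fell by 3.13 ± 0.36 on the log2 scale (SE, 95% interval -4.01 to -2.25, limma adjusted p = 0.0323), from 9.60 ± 0.33 to 6.47 ± 0.50 (SD, n = 3), which is 8.76-fold lower. It was lower on 3 of 3 KO arrays and ranked 29th from the most negative fold change and 46th by p among the 12697 tested probes.

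The separation of Jag1 was present before any normalization. The scanner intensities were 1186, 716 and 751 in WT and 167, 140 and 219 in KO, as means over 34 to 52 beads per array. The standard error over beads, which covers bead noise within an array and not the spread between arrays, was 2.24% to 5.04% of the intensity. In KO the probe was close to background, with detection p-values of 0.00855, 0.00855 and 0.00107 against the limit of 0.01. The size of the fold therefore depended on background correction, and it was 5.19-fold with none (log2 fold change -2.38, adjusted p = 0.0403). The call was lost on leaving out any 1 of the 6 arrays (adjusted p 0.0721 to 0.113, log2 fold change -3.46 to -2.95) and when dim probes were also tested (adjusted p = 0.0750). The study lists Jag1 and Hey1 among its decreased transcripts, so their direction is not independent evidence.

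Sums of cell type markers also separated the groups. The summed linear intensity of 8 lens placode markers was 8005 to 8980 in WT and 4316 to 5222 in KO, with 3 of the 8 called lower and a median log2 fold change of -1.82. The 10 surface ectoderm markers summed to 18844 to 20589 in WT and 11975 to 14018 in KO, with 0 called and a median of -0.44 over the 8 tested. Their part in the Jag1 result was not tested.

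CBP is named for its binding to the factor CREB, which recognises the cAMP response element (CRE, TGACGTCA, with the shorter site TGACG). The upstream windows of the called gene and of the receptors whose groups separated are therefore shown with the matches found in them. Windows are the 250 bases before an annotated RefSeq start site (GRCm38.p6), in the direction of the gene, at chr2:137116521-137116770 (minus strand) for Jag1, chr3:98013288-98013537 (plus) for Notch2 and chr17:32166891-32167140 (minus) for Notch3. Capitals mark a match on either strand to the CRE, its shorter site, the RBPJ core TGGGAA, or the Hes-type sites CACNAG (N-box) and CACGTG (E-box).
Jag1: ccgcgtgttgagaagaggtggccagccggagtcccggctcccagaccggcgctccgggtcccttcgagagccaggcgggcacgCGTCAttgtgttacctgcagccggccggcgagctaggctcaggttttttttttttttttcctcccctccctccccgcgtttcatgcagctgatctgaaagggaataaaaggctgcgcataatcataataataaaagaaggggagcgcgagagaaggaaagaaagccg
Notch2: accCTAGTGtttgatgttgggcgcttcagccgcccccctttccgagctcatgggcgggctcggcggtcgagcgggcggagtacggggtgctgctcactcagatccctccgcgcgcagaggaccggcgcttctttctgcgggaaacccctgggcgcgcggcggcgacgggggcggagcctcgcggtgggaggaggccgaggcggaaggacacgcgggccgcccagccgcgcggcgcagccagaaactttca
Notch3: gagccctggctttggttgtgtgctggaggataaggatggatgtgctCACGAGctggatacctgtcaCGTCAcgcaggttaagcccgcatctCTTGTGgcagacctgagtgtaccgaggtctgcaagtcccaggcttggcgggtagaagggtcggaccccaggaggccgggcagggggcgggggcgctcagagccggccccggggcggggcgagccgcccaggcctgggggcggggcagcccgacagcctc
Jag1 had 1 short CRE site, read as CGTCA and lying 167 bases upstream, and no match to the other motifs. Notch2 had 1 N-box, 247 bases upstream, and Notch3 had 2 N-boxes (204 and 159 bases upstream) with a short CRE site between them (184 bases upstream). None of the 3 windows held the RBPJ core. Over all 32851 windows of this length, 17.8% held a short CRE site, 1.55% a full CRE, 36.7% an N-box, 21.6% the RBPJ core and 6.02% the E-box, so these matches are common and only describe the sequence. The table held 10 windows for 8 of the 10 genes, without Hes1 and Hey1. Among the others, Lfng had 2 RBPJ cores (135 and 108 bases upstream), 1 N-box and 1 E-box, Notch1 had 1 N-box, 1 Hes6 window had 1 N-box, and Jag2 and Dll1 had no match.

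The other ligand genes were dim. Jag2, which encodes the second Jagged ligand, read 5.31, 5.72 and 4.80 in WT and 4.96, 4.79 and 4.83 in KO, with overlapping groups and a difference of -0.42. Dll1, a Delta-like ligand gene, read 4.73, 5.0 and 5.77 in WT and 5.01, 4.85 and 4.98 in KO, also overlapping, with a difference of -0.22. Neither was tested, since neither was above background on any array, and a difference between the genotypes was not detectable for them.

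Of the 3 receptor genes, Notch2 had lower values in KO, Notch3 had higher ones and Notch1 overlapped. The first Notch2 probe (ILMN_2678002) read 7.0, 6.79 and 6.92 in WT and 5.86, 5.41 and 5.56 in KO. Every KO value was below every WT value, and the probe was above background on 3 WT arrays and 1 KO array. Its log2 fold change was -1.29 ± 0.26 (95% interval -1.92 to -0.66, limma adjusted p = 0.0904), from 6.90 ± 0.10 to 5.61 ± 0.23 (SD, n = 3). The size depended on the processing, with -0.68 with no background correction (adjusted p = 0.214) and -0.96 with median scaling (adjusted p = 0.348).

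The second Notch2 probe (ILMN_2980247) read 7.56, 6.09 and 6.43 in WT and 5.33, 5.22 and 5.58 in KO. After normalization the groups did not overlap here either, and WT replicate 1 was the bright array of its group. The probe's scanner intensities did overlap, at 309, 116 and 127 in WT and 112, 101 and 123 in KO. Its log2 fold change was -1.32 ± 0.43 (95% interval -2.37 to -0.26, adjusted p = 0.234), with -0.94 without WT replicate 1 and -1.59 without WT replicate 2. The 2 probes thus gave like values, but they measure the same RNA and are not separate samples.

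Notch3, a receptor gene known from vascular smooth muscle, had its higher values in KO. Its probe (ILMN_2697380) read 6.68, 6.51 and 6.65 in WT and 7.25, 7.82 and 7.25 in KO. The 3 WT values were nearly the same, and every KO value lay above them. The log2 fold change was 0.83 ± 0.28 (95% interval 0.15 to 1.51, adjusted p = 0.246), from 6.61 ± 0.09 to 7.44 ± 0.33 (SD, n = 3). The difference between the Notch2 and Notch3 changes was not tested.

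Markers of other cell types were read on the same arrays. The blood markers summed to 5737 to 7485 in WT and 13709 to 14288 in KO in linear intensity, with a median log2 fold change of 1.39 over the 5 tested of 7 on the array, none called and Gata1 not above background. The 12 endothelial markers summed to 374 to 402 in WT and 888 to 1137 in KO, but their median log2 fold change was 0.02. Of the 12, only Cldn5 passed the filter (log2 fold change 3.67), and 8, among them Pecam1, Cdh5 and Kdr, were not above background on any array. Periocular mesenchyme and neural crest markers overlapped in their sums (2581 to 4579 in WT, 2728 to 3283 in KO), with 1 of the 10 tested called higher, Alx4, a median of 0.89 and Twist1 not above background. Optic vesicle and neuroepithelium markers overlapped too (952 to 4858 in WT, 1504 to 2265 in KO), with 3 of 8 tested, 0 called and Hes5, Six6 and Sox1 not above background. Their part in the Notch3 and Hes6 values was not tested.

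Notch1 encodes the founding receptor of the family. Its probe (ILMN_1241915) read 5.11, 7.56 and 7.02 in WT and 7.36, 6.60 and 6.36 in KO. The groups overlapped, and the low WT value came from replicate 1, where the probe was not above background. The log2 fold change of 0.21 ± 0.69 had a 95% interval of -1.46 to 1.88 (adjusted p = 0.931), so these arrays cannot separate a decrease from an increase. It became -0.53 without WT replicate 1 and -0.11 without KO replicate 1.

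**Figure D2:**
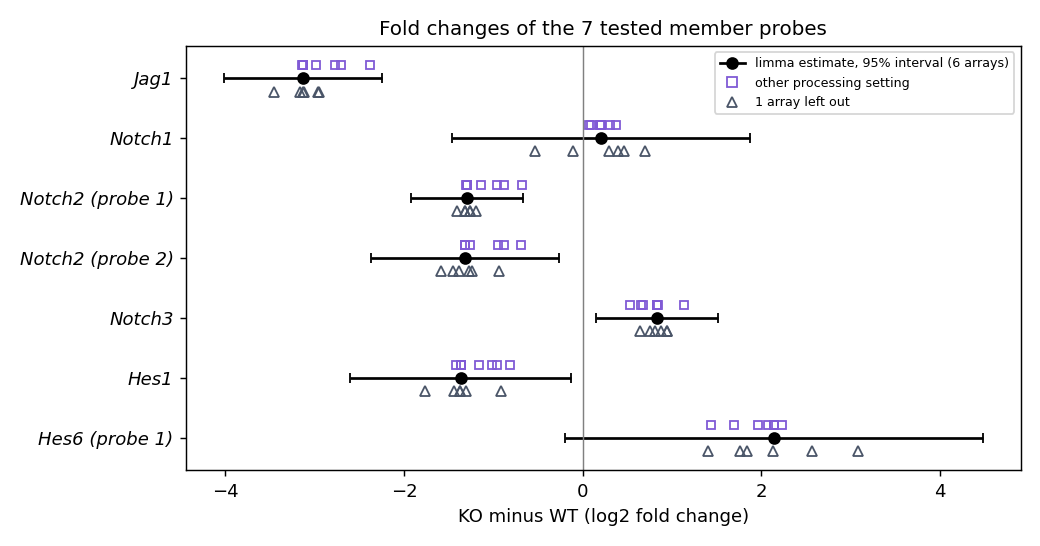
Log2 fold change (KO minus WT, horizontal axis) of the 7 tested probes. Black points with bars are the limma estimate and its 95% interval, squares other processing settings and triangles the fits with 1 array left out; the estimates keep their sign except for Notch1, whose triangles lie on both sides of 0 (-0.53 to 0.70).

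Among the effectors, Hes1 encodes a basic helix-loop-helix repressor that is a direct Notch target. Its probe (ILMN_1247691) read 8.19, 7.12 and 6.26 in WT and 5.83, 5.69 and 5.95 in KO. The WT values were widely spread while the KO values were tight, and the groups did not overlap after normalization. The scanner intensities did overlap, at 421, 182 and 119 in WT and 136, 123 and 143 in KO. The log2 fold change was -1.37 ± 0.51 (95% interval -2.61 to -0.13, adjusted p = 0.283), from 7.19 ± 0.97 to 5.82 ± 0.13 (SD, n = 3), and the probe was above background on 3 WT arrays and 1 KO array. Without WT replicate 1, the brightest array, it was -0.91 (adjusted p = 0.331), and without WT replicate 3, the dimmest of its group, -1.77 (adjusted p = 0.151).

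Hey1, a related repressor gene and Notch target, was above background on 2 WT and 2 KO arrays and so was not tested. Its probe (ILMN_2690596) read 5.63, 7.76 and 7.64 in WT and 6.38, 6.23 and 5.34 in KO. WT replicates 2 and 3 were the brightest of the 6 arrays, but WT replicate 1 lay among the KO values, and the groups overlapped. The difference of the means was -1.03 (7.01 ± 1.19 against 5.98 ± 0.57, SD, n = 3). It was -1.76 without WT replicate 1 (limma adjusted p = 0.170), when the probe passed the filter through WT alone. The probe passed through KO alone without KO replicate 3 (-0.72, adjusted p = 0.775) and at a detection p-value under 0.05 (-1.03, adjusted p = 0.574). The difference was -0.64 without WT replicate 2 and -0.69 without WT replicate 3.

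Hes6 encodes a Hes family protein that is known to oppose Hes1 and to favour neuronal differentiation. Its bright probe (ILMN_2791952) read 5.14, 6.12 and 8.70 in WT and 9.56, 8.85 and 7.96 in KO. WT replicate 3 lay within the KO range and the other WT arrays well below it. The log2 fold change was 2.14 ± 0.96 (95% interval -0.20 to 4.48, adjusted p = 0.369), the widest interval of the 7 tested probes. It was 1.40 (adjusted p = 0.518) without WT replicate 1 and 3.08 (adjusted p = 0.123) without WT replicate 3. The other 2 Hes6 probes (ILMN_2608043 and ILMN_1214126) were not above background on any array, lay between 4.72 and 5.36, and differed by -0.01 and 0.01. The higher Hes6 values in KO were thus read by the bright probe alone, and why the probes differ was not tested.

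On WT replicate 1, the array with the highest background, the Notch1, Hey1 and bright Hes6 probes each had their lowest WT value and were not above background. On the same array Hes1, Jag1 and both Notch2 probes had their highest WT value, as did Notch3, which was not above background there. The part of that array's background in these values was not tested.

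Lfng encodes a glycosyltransferase that extends sugars on Notch receptors and shifts their response from Jagged towards Delta-like ligands. Its probe (ILMN_1247209) read 4.68, 4.60 and 4.66 in WT and 4.61, 4.71 and 4.60 in KO. All 6 values were at background, the groups overlapped, and the difference was -0.01.

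**Figure D3:**
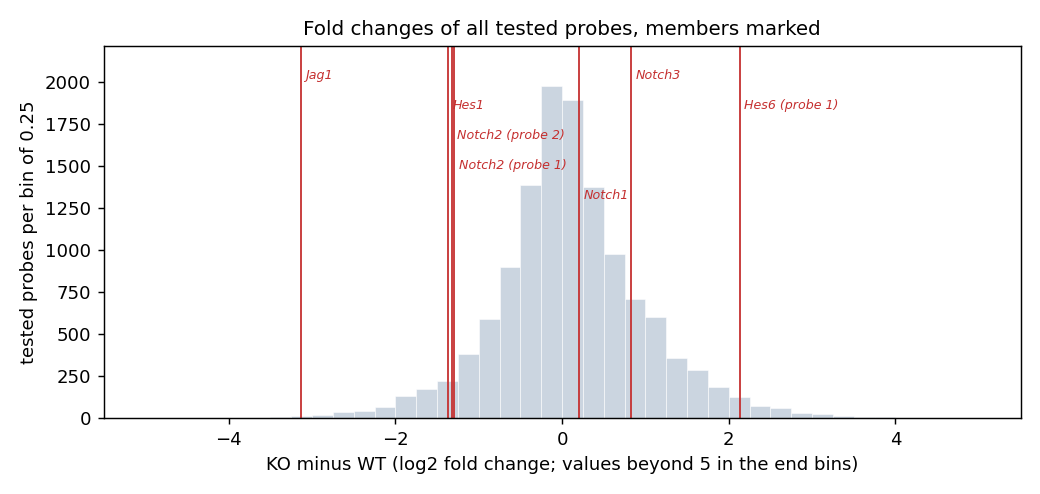
Number of tested probes (vertical axis) per bin of log2 fold change (KO minus WT, horizontal axis) over all 12697 tested probes, with the 7 Notch probes as vertical lines. Jag1 at -3.13 lies in the far lower tail, and the Hes1 and Notch2 lines between -1.37 and -1.29 lie on its shoulder.

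The rest of the pathway was followed with a list of 55 further genes, of which 48 were on the array and 28 had a tested probe (39 probes). None was called lower or higher by limma. At an unadjusted p under 0.05, 2 of the 39 probes were lower and 2 higher, against 6.61% and 8.58% of all tested probes. By the brightest tested probe of each gene, 12 log2 fold changes were negative and 16 positive, with a median of 0.19, and the median over all 48 genes was 0.01. By that probe, the 2 lowest p-values in this list belonged to genes whose groups overlapped. Dlk1, a non-canonical ligand of the Delta family, read 9.42, 5.05 and 5.55 in WT and 9.29, 11.77 and 9.09 in KO, a difference of 3.37 ± 1.33 (adjusted p = 0.310). In WT it exceeded background on replicate 1 alone, and in KO on all 3 arrays. Tle3, a Groucho corepressor that Hes proteins recruit, read 7.12, 7.73 and 8.74 in WT and 7.31, 6.02 and 5.96 in KO, a difference of -1.43 ± 0.57 (adjusted p = 0.313), and its dimmer probe lay lower on every KO array (-2.16, adjusted p = 0.173).

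The tested genes at each step lay on both sides of 0 except where few were measured. Of 7 genes of ligand and receptor trafficking and turnover, 6 had positive values (median 0.78), among them Fbxw7, which marks the Notch intracellular domain for degradation (1.09, adjusted p = 0.440), and the ligand ubiquitin ligase gene Mib2 (0.95, adjusted p = 0.457). The 5 cleavage genes had a median of 0.46, which was the value of the gamma-secretase subunit gene Aph1a (adjusted p = 0.544). Of the 6 nuclear complex genes tested, Rbpj differed by 0.30 (adjusted p = 0.809) and Maml1, a Mastermind coactivator gene, by -0.85 (adjusted p = 0.827). The 5 corepressor genes ran from -1.43 to 0.95 and included Spen (-1.06, adjusted p = 0.394) and Cir1 (0.95, adjusted p = 0.490), both partners of RBPJ, and Tle4 (-0.49, adjusted p = 0.493, against 0.36 by its other probe).

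Of the 7 further target genes on the array, only the feedback inhibitor gene Nrarp had a tested probe (-0.47 ± 0.49, adjusted p = 0.735). Hes2, Hes3, Hes5, Hes7 and Heyl were not above background on any array, and Hey2 was above background on 1 KO array. With Hes1 and Hey1, the target side of the pathway was therefore read from few probes, none of them above background on every array. Changes in the unmeasured targets were not detectable on these arrays.

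**Figure D4:**
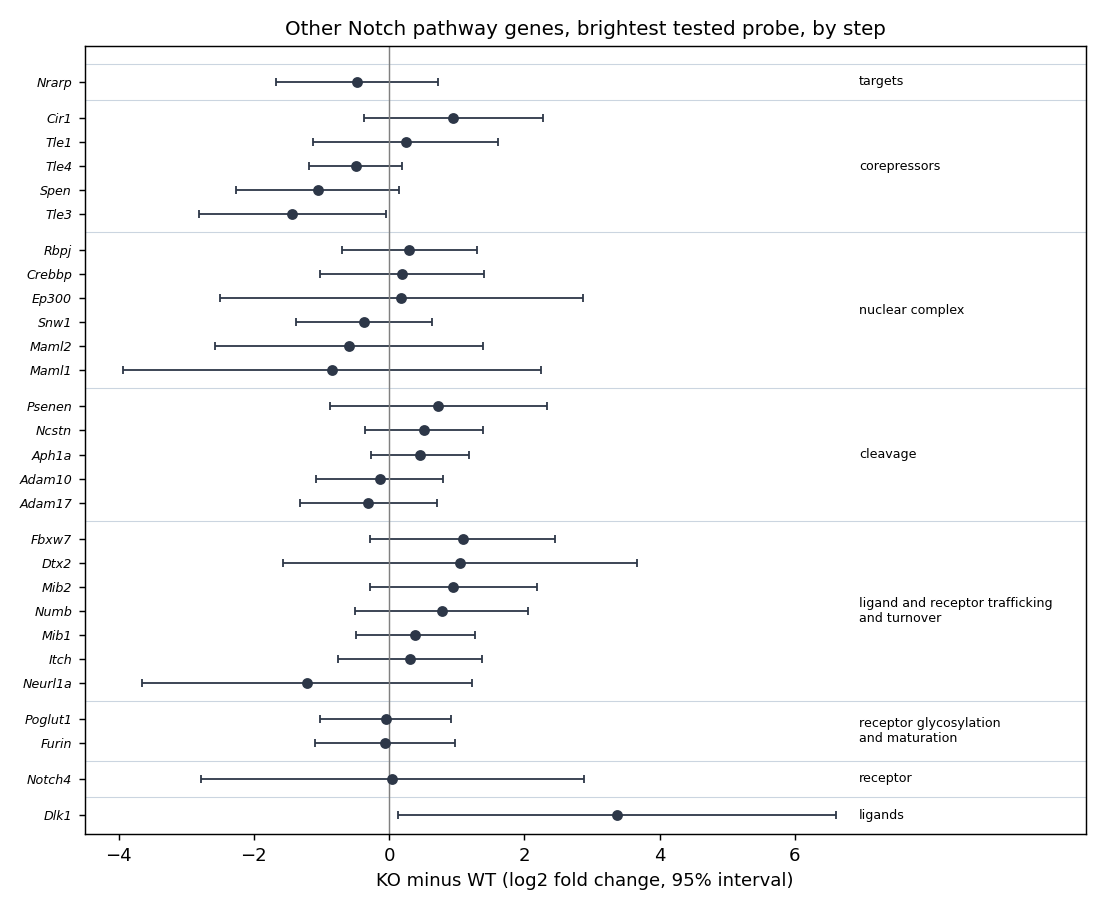
Log2 fold change (KO minus WT, horizontal axis) of the brightest tested probe of each of the 28 further pathway genes, grouped by step, with 95% intervals of the limma fit. All intervals include 0 except those of Dlk1 and Tle3, and none of the 28 was called.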

How the data were processed

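Total RNA was amplified to cDNA, biotin labelled and hybridised to Illumina MouseWG-6 v2 BeadChips. The deposited table, exported from GenomeStudio by the authors (release not given in the sources used here), gives for each probe the mean bead intensity, not normalized, with its bead standard error, the number of beads and a detection p-value, which the authors' software set from negative control probes. The authors' deposited processed table holds normalized intensity values (cubic spline in the methods), positive and negative on a linear scale. Its columns have medians of 15.9 to 16.0 (WT 15.9, 15.9 and 16.0, KO 15.9, 16.0 and 16.0), and each ranks the probes as the scanner values of its array do (Spearman's rho 1), so its direction is settled and genes were not centred. It served only as an alternative, as log2 of the value, floored at 0, plus 16. No columns of the authors' comparisons were used.

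Intensities were background corrected with limma's nec (normexp with the background inferred from detection p-values, offset 16), quantile normalized and log2 transformed, so values are log2 normalised intensities. Probes above background (detection p-value under 0.01) throughout at least 1 genotype were tested with lmFit and eBayes (R 4.3.3, limma 3.58.1) with Benjamini-Hochberg adjustment over all 12697 probes. This took the place of GenomeStudio's own test in the methods. The number of arrays limits the precision. A bound fold sets the bright group's mean against, on each dim array, the probe's own value or the dimmest detected probe, whichever is higher. Different probes of a gene were kept apart, and the brightest tested one stood for it in medians. The fit was tested on simulated data.

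Names came from the platform annotation, in which 34885 probes have 1 symbol, 18 several and 10378 none. All 13 member probes matched the current symbol through Entrez identifiers. Named genes were all members, the 8 further pathway genes with the smallest p-values (none was called) and the targeted genes, with others added for context after their values were seen. The members and lists were chosen with earlier results of these data known. Alternatives were the background correction, scaling, filter, array weights, replicate block, the deposited processed values and leaving out each array. Probe positions in the transcripts were not analysed here.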

Additional observations from a re-analysis of the deposited data

How the results depend on the processing

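Jag1 stayed lower in KO in all 14 alternatives (log2 fold change -3.46 to -2.38) and was called in 6. The number of called Notch genes fell from 1 to 0 without a filter on dim probes and to 0 without any 1 of the 6 arrays (range 0 to 0). Over all probes, 54 lower and 53 higher calls became 17 and 19 with no background correction, 26 and 27 with an offset of 50, 21 and 24 at a detection p-value under 0.05, 36 and 30 with no filter, and 0 and 0 on leaving out any array. With the replicate block, 0 Notch genes and 0 probes in all were called (Jag1 adjusted p = 0.207). Samples with the same number did not deviate together (correlations -0.03 to 0.00). So few arrays cannot decide whether such samples were handled as pairs, and the sources used here do not state a pairing.

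The median over the Notch genes moved from -0.54 to -0.30 with no background correction, -0.29 with median scaling, -0.32 with no filter (10 genes) and -1.03 at a detection p-value under 0.05 (7 genes), and lay between -0.91 (without WT replicate 1) and -0.31 (without WT replicate 2) on leaving out 1 array. Notch1 turned to -0.53 without WT replicate 1 and to -0.11 without KO replicate 1 (range -0.53 to 0.70). In the further pathway list, 1 gene was called higher with median scaling, Ep300 by its dimmer probe (adjusted p = 0.0433), against 0. The other tested Notch probes kept their sign throughout. Fewer arrays and more probes enter some of these fits, and otherwise the cause was not tested.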
